A study of Mus musculus with 11 samples.

Results

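The 8 transcription factors described here were listed by name as hepatocyte and biliary lineage regulators: Hnf4a, Foxa1, Foxa2, Foxa3, Onecut1, Cebpa, Prox1 and Nr1h4. They are 8 of the 36528 gene IDs in the count tables, and 6 of them passed the low-count filter, which kept 18224 genes. RNA was sequenced from 11 libraries of cell lines grown from mouse liver tumours, in 3 groups: 5 libraries with TAZ-S89A, 3 with YAP-5SA and 3 with YAP-S127A. YAP and TAZ are related coactivators held out of the nucleus when Hippo pathway kinases phosphorylate their serines, and each mutant carries alanine in place of such serines, a single one in TAZ-S89A and YAP-S127A and several in YAP-5SA, which the sample labels write as YAP-S5A. All 3 groups carry an activated coactivator, and unmutated liver or cells were not analysed here. Whether replicate libraries stem from different tumours or from repeat cultures of 1 line is not stated in the labels. A p-value here thus weighs a difference against the spread of replicate libraries, possibly technical spread alone, and mutant and line identity cannot be told apart.

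Liver identity is held by a small network of transcription factors that bind together near hepatocyte genes and activate each other. FOXA proteins are pioneer factors that open chromatin, the nuclear receptor HNF4A and the leucine zipper factor C/EBP alpha drive the metabolic and secretory genes of hepatocytes, and HNF6 (gene Onecut1) acts in both hepatocytes and bile ducts. PROX1 is a homeodomain protein of early hepatoblasts and adult hepatocytes, and FXR (gene Nr1h4) is the nuclear receptor that senses bile acids.

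Total counts per library ran from 20071144 to 49159713, with the lowest 2 in TAZ-S89A replicates 4 and 5, whose sample IDs form a second number series. Those 2 libraries resembled each other far more than the other TAZ-S89A libraries did (a chi-square per degree of freedom of 2.01 over genes), as did TAZ-S89A replicates 1 and 2 (5.63), against 101.3 to 217.9 for all other TAZ-S89A pairs. No pair agreed within sampling noise. The label liver was checked against 26 hepatocyte genes, of which 21 had too few counts to test. Albumin mRNA (Alb) totalled 1, 8 and 112 counts in TAZ-S89A, YAP-5SA and YAP-S127A, so the libraries did not show the RNA content of hepatocytes. In bulk RNA, fewer cells that express a gene and less of its RNA per cell cannot be told apart.

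The promoter windows of 3 factors are printed because Hnf4a and Foxa2 had far less mRNA in TAZ-S89A than in both YAP groups, and Foxa1 was the tested member that was called in no comparison. Each window of 300 bases, from RefSeq on GRCm38.p6, runs from 250 bases before an annotated transcript start to 50 after it, 5′ to 3′ on the gene's strand. Capitals mark matches to short core motifs of liver factors, searched on both strands, and lie on the motif's own letters or on their reverse complement. Hnf4a has an upstream and a downstream start, of which adult hepatocytes mainly use the downstream one, and the window of the upstream start is shown (chr2:163506607-163506906, plus strand). The Foxa2 window is that of its outermost start (chr2:148046920-148047219, minus strand). The windows of the downstream Hnf4a start and of the other Foxa2 starts held no motif match and are not printed. The Foxa1 window lies at chr12:57546062-57546361 on the minus strand. It is inside the span of the gene given below, so its start is not the outermost one.
Hnf4a upstream start: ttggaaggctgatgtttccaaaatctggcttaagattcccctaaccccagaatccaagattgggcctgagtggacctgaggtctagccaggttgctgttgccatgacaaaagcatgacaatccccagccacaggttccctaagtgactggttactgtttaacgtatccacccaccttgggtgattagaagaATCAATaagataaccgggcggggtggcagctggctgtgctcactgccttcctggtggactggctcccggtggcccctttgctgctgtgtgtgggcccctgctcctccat
Foxa2: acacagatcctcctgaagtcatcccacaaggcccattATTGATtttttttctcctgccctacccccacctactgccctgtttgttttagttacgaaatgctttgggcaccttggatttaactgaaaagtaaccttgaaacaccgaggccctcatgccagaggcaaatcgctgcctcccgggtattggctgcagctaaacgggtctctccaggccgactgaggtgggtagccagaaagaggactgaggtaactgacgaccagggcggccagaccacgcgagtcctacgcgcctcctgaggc
Foxa1: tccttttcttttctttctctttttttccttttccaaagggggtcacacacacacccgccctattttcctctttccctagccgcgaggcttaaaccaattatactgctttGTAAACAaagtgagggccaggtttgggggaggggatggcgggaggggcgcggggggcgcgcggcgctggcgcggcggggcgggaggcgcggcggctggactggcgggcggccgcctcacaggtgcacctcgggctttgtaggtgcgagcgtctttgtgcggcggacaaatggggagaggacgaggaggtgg

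The capitals are an ONECUT core (ATTGAT) in the upstream Hnf4a window, 59 bases before the start, and in the Foxa2 window, 213 bases before the start. The Foxa1 window holds the FOXA core (TGTTTAC) as its reverse complement 141 bases before that inner start, which is within the span of the gene. Over all 12 windows of the 8 members, the ONECUT core was in 2 and the FOXA core in 1, against 7.54% and 3.65% of 32851 windows of all genes. The windows printed are those with a match, so they do not stand for all starts of these genes. The TEAD core (CATTCC), the motif of the partners of YAP and TAZ, was in 0 of the 12 windows and in 14.7% of all windows. An HNF4 core (CAAAGTCCA) was in 0 of 12 and in 0.475% of all. A match is a description of these letters and no measured binding site, and gene counts do not tell which start was used.

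Levels are given as CPM, counts scaled to library size with TMM factors. In TAZ-S89A against YAP-S127A, 5 of the 6 tested members (Hnf4a, Foxa2, Cebpa, Prox1 and Nr1h4) were lower and 1, Foxa1, was not called. In that comparison 57.6% of all tested genes were called (edgeR's quasi-likelihood test, Benjamini-Hochberg adjusted p under 0.05), 30.6% as lower and 27% as higher. Against YAP-5SA, TAZ-S89A libraries were lower in 3 of the 6 (Hnf4a, Foxa2 and Nr1h4) and higher in 0, beside 57.9% of all genes called, 31% as lower and 26.9% as higher, so the number called was near the background. In YAP-5SA against YAP-S127A, 2 were higher (Foxa2 and Nr1h4) and 2 lower (Cebpa and Prox1), beside 55.2% of all genes called, 28.2% as higher and 27% as lower. When the log2 fold change also had to lie beyond 1 or -1, 4, 3 and 4 of the 6 members were called in these comparisons, against 32.2%, 33.8% and 34.4% of all genes. The libraries of the compared groups did not overlap for 5, 3 and 5 of the 6, against 57.8%, 52% and 69.6% of all genes. The median log2 fold change of the 6 was -2.41, -1.58 and -0.20 in these comparisons, against -0.03, -0.04 and 0.01 for all genes. A decrease in TAZ-S89A against both YAP groups was called for 3 members and for 17.2% of all tested genes. Each of the 6 exceeded the filter's cutoff of 0.25 CPM (before TMM scaling) in at least 3 libraries of every group, so none was tested through its highest group alone. The 3 comparisons share their libraries and are not independent of each other.

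**Figure D1:**
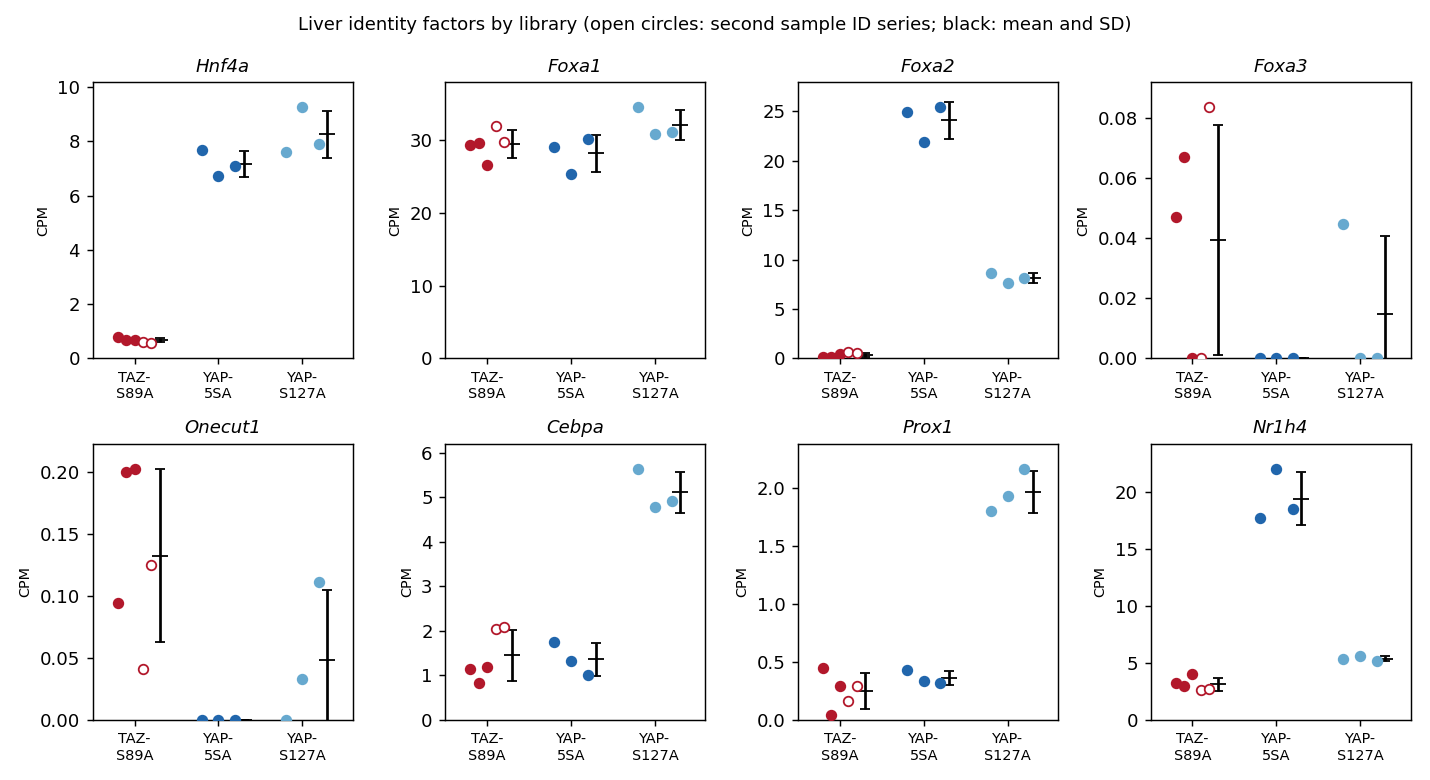
Level of each of the 8 factors (CPM, TMM-scaled, linear axes from 0) in every library of TAZ-S89A, YAP-5SA and YAP-S127A. Points are libraries, open circles are TAZ-S89A replicates 4 and 5, and black bars give the mean and SD of the group, with the lower SD bar ending at the axis where it would pass 0. Foxa2 and Nr1h4 were highest in YAP-5SA, Cebpa and Prox1 in YAP-S127A, Hnf4a was low in TAZ-S89A, and Foxa1 was between 25.3 and 34.5 CPM in every library.

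The FOXA family divided by member. Foxa2 (Entrez gene 15376, chr2:148042877-148046969, minus strand), a pioneer factor of endoderm and liver, had 0.118, 0.134, 0.406, 0.612 and 0.543 CPM in TAZ-S89A replicates 1 to 5, from 5 to 15 counts a library. It had 25.0, 21.9 and 25.4 CPM in YAP-5SA and 8.62, 7.64 and 8.14 CPM in YAP-S127A. The groups formed 3 separate ranges, with all TAZ-S89A libraries lowest and all YAP-5SA libraries highest. The log2 fold change was -6.20 (SE 0.32, adjusted p = 9.41e-10, edgeR) in TAZ-S89A against YAP-5SA, a value that only 2.76% of tested genes matched or went below. It was -4.63 (SE 0.32, adjusted p = 2.65e-08, edgeR) in TAZ-S89A against YAP-S127A and 1.56 (SE 0.29, adjusted p = 0.000364, edgeR) in YAP-5SA against YAP-S127A. Within TAZ-S89A, Foxa2 averaged 0.577 CPM in replicates 4 and 5 and 0.219 CPM in replicates 1 to 3. Without replicates 4 and 5, the log2 fold changes of TAZ-S89A were -6.82 against YAP-5SA and -5.29 against YAP-S127A.

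Foxa1 (Entrez gene 15375, chr12:57540628-57548029, minus strand), its close paralog with overlapping roles in starting liver development, had 29.4, 29.7, 26.6, 32.0 and 29.7 CPM in TAZ-S89A. The YAP-5SA libraries had 29.0, 25.3 and 30.3 CPM and the YAP-S127A libraries 34.5, 30.9 and 31.1 CPM. The ranges of the TAZ-S89A libraries overlapped those of both YAP groups, while the YAP-5SA libraries were all below the YAP-S127A ones. No comparison was called: the log2 fold change was -0.13 (95% interval -0.36 to 0.11) in TAZ-S89A against YAP-S127A, 0.06 (-0.17 to 0.30) against YAP-5SA, and -0.19 (-0.45 to 0.08) in YAP-5SA against YAP-S127A. These intervals leave room for a change of less than 0.5 on the log2 scale in either direction. Of all tested genes, 19.3% were likewise called in 0 of the 3 comparisons. Foxa3 (Entrez gene 15377, chr7:19013283-19023539, minus strand), the FOXA gene tied to glucose metabolism in adult liver, gave 2, 3, 0, 0 and 2 counts in TAZ-S89A, 0 in every YAP-5SA library and 2, 0 and 0 in YAP-S127A. It did not pass the filter. Pooled over libraries, its TAZ-S89A level was 1.65 times the floor of 3 counts over the YAP-5SA group, and the 95% counting limit of the ratio to YAP-5SA began at 1.02. It was 2.29 times the YAP-S127A level, with a 95% counting interval of 0.436 to 22.6. In a fit with no low-count filter the adjusted p for Foxa3 was 0.0785 in TAZ-S89A against YAP-5SA and 0.497 against YAP-S127A (edgeR), so that neither difference was called.

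Per length, in the authors' nRPKM, the family thus had a different make-up in each group. Foxa2 gave 1.65% of the summed Foxa1, Foxa2 and Foxa3 level in TAZ-S89A (0.55% to 2.57% over 5 libraries), 54.1% in YAP-5SA (53.7% to 54.4%) and 25.9% in YAP-S127A (25.5% to 26.5%). Foxa1 gave 98.1% in TAZ-S89A, 45.9% in YAP-5SA and 74.1% in YAP-S127A. YAP-5SA was the group in which Foxa2 exceeded Foxa1, in each of its 3 libraries.

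**Figure D2:**
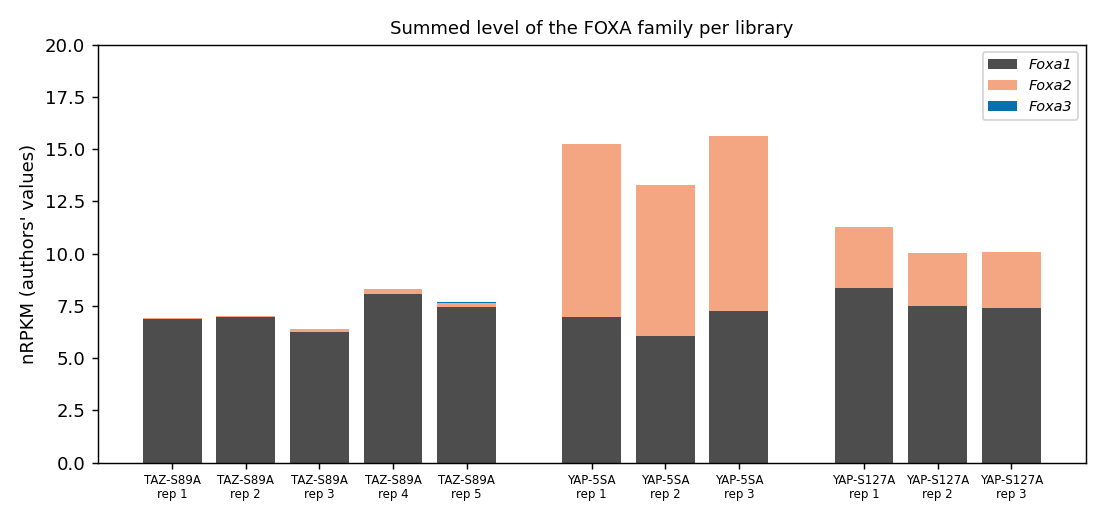
Stacked levels of Foxa1, Foxa2 and Foxa3 (the authors' nRPKM, linear axis from 0) in each library, with TAZ-S89A left, YAP-5SA in the middle and YAP-S127A right. The Foxa1 part of the bars is of like height throughout, the Foxa2 part is 1.65% of the bar on average in TAZ-S89A and 54.1% in YAP-5SA, and Foxa3 is close to 0.

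Hnf4a (Entrez gene 15378, chr2:163506811-163572907, plus strand), the receptor without which hepatocytes do not mature, had 0.802, 0.691, 0.696, 0.612 and 0.584 CPM in TAZ-S89A, from 14 to 34 counts a library. It had 7.67, 6.72 and 7.09 CPM in YAP-5SA and 7.62, 9.25 and 7.89 CPM in YAP-S127A. All TAZ-S89A libraries were below all YAP libraries, and the ranges of the YAP groups overlapped. The mean was 0.677 ± 0.0852 CPM in TAZ-S89A (SD, n = 5), 7.16 ± 0.480 in YAP-5SA and 8.25 ± 0.873 in YAP-S127A (SD, n = 3 each). The log2 fold change of TAZ-S89A was -3.58 against YAP-S127A (SE 0.16, adjusted p = 2.4e-10, edgeR) and -3.38 against YAP-5SA (SE 0.16, adjusted p = 3.61e-10, edgeR). Between YAP-5SA and YAP-S127A it was -0.20, with a 95% interval of -0.54 to 0.14 and an adjusted p of 0.291 (edgeR). An antisense gene, Hnf4aos, overlaps Hnf4a, and the strand setting of the counting is not known. It held 19, 31 and 5 counts in TAZ-S89A, YAP-5SA and YAP-S127A, so its own counted reads were fewer than those of Hnf4a in every group.

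Nr1h4 (Entrez gene 20186, chr10:89454234-89533645, minus strand), the bile acid receptor FXR, had 3.23, 2.99, 4.03, 2.61 and 2.67 CPM in TAZ-S89A. It had 17.7, 22.1 and 18.6 CPM in YAP-5SA and 5.33, 5.64 and 5.19 CPM in YAP-S127A. The 3 groups did not overlap, with YAP-5SA highest and TAZ-S89A lowest, the same order of groups as for Foxa2 but with a smaller distance between TAZ-S89A and YAP-S127A. The log2 fold change of TAZ-S89A was -2.64 against YAP-5SA (SE 0.15, adjusted p = 3.66e-09, edgeR) and -0.79 against YAP-S127A (SE 0.16, adjusted p = 0.000778, edgeR). In YAP-5SA against YAP-S127A it was 1.85 (SE 0.18, adjusted p = 8.6e-07, edgeR), which 9.87% of tested genes matched or exceeded.

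Of 14 bile acid genes that FXR controls or that act beside it, 8 were tested. In TAZ-S89A against YAP-S127A 2 were higher, 2 lower and 4 not called, and against YAP-5SA 2 were higher, 3 lower and 3 not called. In YAP-5SA against YAP-S127A 3 were higher, 1 lower and 4 not called. The shares called, 50%, 62.5% and 50%, lay near the 57.6%, 57.9% and 55.2% of all genes, and 4 of the 8 (Abcb4, Slc51a, Slc51b and Klb) did not reach the filter's cutoff in 3 libraries of more than 1 group. The list's median log2 fold change was 0.12, 0.06 and 0.00 in these comparisons, near that of all genes. Abcb4, the canalicular phospholipid exporter, averaged 0.134 ± 0.0637 CPM in TAZ-S89A, 1.74 ± 0.277 in YAP-5SA and 0.257 ± 0.110 in YAP-S127A. Abcc2, a conjugate exporter, averaged 0.223 CPM in TAZ-S89A, 0.789 in YAP-5SA and 0.201 in YAP-S127A. Abcc2 was called higher in YAP-5SA than in each other group, at a log2 fold change of 1.93 (SE 0.36) over YAP-S127A, while Abcb4 passed the filter only through YAP-5SA. The classical FXR target Nr0b2, a repressor of bile acid synthesis, had 2 counts over the TAZ-S89A libraries, 21 over YAP-5SA and 5 over YAP-S127A and was not tested. Cyp7a1, the rate-limiting enzyme of that synthesis, had 3 counts in TAZ-S89A, 6 in YAP-5SA and 0 in YAP-S127A. Fgfr4, the receptor of the bile acid hormone FGF15, ran otherwise, at 0.285 ± 0.107 CPM in TAZ-S89A, 0.519 ± 0.118 in YAP-5SA and 1.25 ± 0.437 in YAP-S127A. The bile acid transporter subunits Slc51a and Slc51b overlap other tested genes on the opposite strand, Pcyt1a and Rasl12, and are uncertain. Slc51b had 115 counts in TAZ-S89A and 0 in both YAP groups. Its TAZ-S89A level was 27.2 times the floor of 3 counts over YAP-5SA and 25.1 times that over YAP-S127A, with lower 95% counting limits of 21.7 and 20.1, and it ranged from 0.0815 to 1.102 CPM within TAZ-S89A. Rasl12 was also higher in TAZ-S89A, at 2.79 CPM against 0.361 and 0.131 CPM in YAP-5SA and YAP-S127A.

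Cebpa (Entrez gene 12606, chr7:35119293-35121928, plus strand), which drives gluconeogenic and lipid genes and restrains hepatocyte division, had 1.13, 0.825, 1.19, 2.04 and 2.09 CPM in TAZ-S89A. It had 1.74, 1.31 and 1.02 CPM in YAP-5SA and 5.64, 4.79 and 4.92 CPM in YAP-S127A. All YAP-S127A libraries were above all others, and the TAZ-S89A and YAP-5SA ranges overlapped. The log2 fold change against YAP-S127A was -1.86 in TAZ-S89A (SE 0.27, adjusted p = 5.56e-05, edgeR) and -1.92 in YAP-5SA (SE 0.32, adjusted p = 0.000158, edgeR). TAZ-S89A against YAP-5SA gave 0.06, with a 95% interval of -0.58 to 0.70 and an adjusted p of 0.873 (edgeR). TAZ-S89A replicates 4 and 5 averaged 2.06 CPM and replicates 1 to 3 averaged 1.05 CPM. Without replicates 4 and 5 the log2 fold change against YAP-5SA was -0.36, still not called. The median log2 fold change of tested genes on chromosome 7, which holds Cebpa, was -0.70 in TAZ-S89A against YAP-S127A, -0.54 in TAZ-S89A against YAP-5SA, where Cebpa was at 0.06, and -0.12 in YAP-5SA against YAP-S127A. The part of this shift in Cebpa was not tested. An antisense gene, Gm45091, overlaps 313 bases of Cebpa, and its counts were not analysed here.

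Onecut1 (Entrez gene 15379, chr9:74861921-74889648, plus strand), the HNF6 gene needed for normal bile duct formation, was close to the limit of detection. It gave 4, 9, 7, 1 and 3 counts in TAZ-S89A, 0 in every YAP-5SA library, and 0, 1 and 4 in YAP-S127A. Every TAZ-S89A library held at least 1 count, and the TAZ-S89A and YAP-S127A ranges overlapped. Pooled, TAZ-S89A had 0.141 CPM. This was 5.67 times the floor of 3 counts over the YAP-5SA group, with a lower 95% counting limit of 4.26 for the ratio to YAP-5SA, and 3.14 times the 0.0449 CPM of YAP-S127A (95% counting interval 1.17 to 10.5). For YAP-5SA against YAP-S127A, with 0 and 5 counts, the 95% counting interval of the ratio ran from 0 to 1.01 and included no difference. Intervals and floors cover counting error only. In the fit with no low-count filter the adjusted p for Onecut1 was 0.00311 in TAZ-S89A against YAP-5SA, 0.169 in TAZ-S89A against YAP-S127A and 0.0703 in YAP-5SA against YAP-S127A (edgeR). The gene overlaps Gm20649, a non-coding gene on the same strand. Its paralog Onecut2 was far better detected, at 15.9 ± 3.46 CPM in TAZ-S89A, 61.1 ± 13.5 in YAP-5SA and 39.0 ± 3.33 in YAP-S127A. It was called lower in TAZ-S89A than in both YAP groups, with a log2 fold change of -1.94 against YAP-5SA (SE 0.18).

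Prox1 (Entrez gene 19130, chr1:190118035-190170827, minus strand), which in mouse embryos lets hepatoblasts spread out of the liver bud, had 0.448, 0.0446, 0.290, 0.163 and 0.292 CPM in TAZ-S89A, from 2 to 19 counts. It had 0.428, 0.335 and 0.315 CPM in YAP-5SA and 1.81, 1.94 and 2.17 CPM in YAP-S127A. As for Cebpa, all YAP-S127A libraries were above all others, and the other groups overlapped. The log2 fold change against YAP-S127A was -2.97 in TAZ-S89A (SE 0.38, adjusted p = 1.64e-05, edgeR) and -2.45 in YAP-5SA (SE 0.42, adjusted p = 0.000239, edgeR). TAZ-S89A against YAP-5SA gave -0.53, with a 95% interval of -1.51 to 0.46, so that a change of more than 2-fold could not be told from none at these counts. Without TAZ-S89A replicate 2, the lowest library, that value was -0.20, and without replicate 1, the highest, -0.93. The antisense genes Prox1os and Gm28172 overlap Prox1. Prox1os had 2 counts in TAZ-S89A, 0 in YAP-5SA and 4 in YAP-S127A. Counts of Gm28172 were not analysed here.

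**Figure D3:**
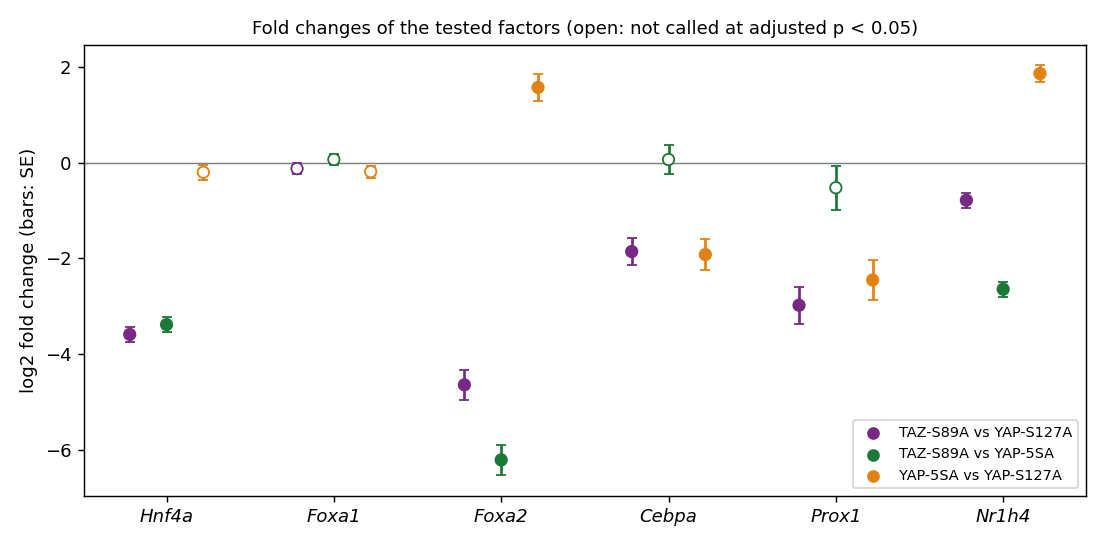
Log2 fold changes of the 6 tested factors in the 3 comparisons (points; bars are SE; filled where adjusted p was under 0.05, edgeR). Foxa1 stays within 0.19 of 0 on the log2 scale in every comparison, Foxa2 reaches -6.20 in TAZ-S89A against YAP-5SA, and Cebpa and Prox1 are below 0 in both comparisons with YAP-S127A.

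The order of the factors by level per length (nRPKM, mean ± SD) also differed by group. In TAZ-S89A, Foxa1 stood first at 7.12 ± 0.685, well apart from Nr1h4 at 0.976 ± 0.153 and Cebpa at 0.459 ± 0.198. Foxa2 (0.123 ± 0.0806) and Hnf4a (0.121 ± 0.0114) did not differ beyond their spread, and Onecut1, Prox1 and Foxa3 were below 0.06. In YAP-5SA the order was Foxa2 (7.96 ± 0.644), Foxa1 (6.75 ± 0.625) and Nr1h4 (6.10 ± 0.710), in which the ranges of mean ± SD of neighbours overlapped, although Foxa2 exceeded Foxa1 in each library, then Hnf4a at 1.28 and Cebpa at 0.419. In YAP-S127A Foxa1 led at 7.75 ± 0.543, followed by Foxa2 at 2.71 ± 0.168, and Nr1h4 (1.70 ± 0.0864), Cebpa (1.59 ± 0.151) and Hnf4a (1.48 ± 0.164) lay close together, with ranges of mean ± SD that overlapped between neighbours. Prox1 reached 0.188 there, its highest group mean. Thus Foxa1 was the only member among the first 2 in every group.

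The factors' partners in the same network were read from a list of 28 other liver and endoderm factors, 26 of them tested. In TAZ-S89A against YAP-S127A 8 were higher, 10 lower and 8 not called (median log2 fold change -0.11), and against YAP-5SA 7 were higher, 9 lower and 10 not called (median -0.20). In YAP-5SA against YAP-S127A 12 were higher, 7 lower and 7 not called (median 0.64). The shares called, 69.2%, 61.5% and 73.1%, stood beside 57.6%, 57.9% and 55.2% of all genes. Of the 26, 4 (Nr5a2, Ppara, Creb3l3 and Mlxipl) did not reach the filter's cutoff in 3 libraries of more than 1 group. A gene tested through 1 group alone is likelier to differ, although Mlxipl was called in no comparison, so these counts are a description. Gata4, the zinc-finger factor that acts with FOXA in early liver endoderm, averaged 0.371 ± 0.199 CPM in TAZ-S89A, 17.8 ± 1.48 in YAP-5SA and 1.17 ± 0.0282 in YAP-S127A, the order of groups seen for Foxa2. Its log2 fold change in TAZ-S89A was -5.69 against YAP-5SA (SE 0.28, adjusted p = 7.44e-10, edgeR) and -1.77 against YAP-S127A (SE 0.32, adjusted p = 0.000353, edgeR). Nr5a2, the nuclear receptor LRH-1 of bile acid synthesis, had 6 counts in TAZ-S89A, 130 in YAP-5SA and 4 in YAP-S127A. Nr1h3, the oxysterol receptor LXR alpha, averaged 0.549 CPM in TAZ-S89A, 2.19 in YAP-5SA and 0.557 in YAP-S127A. Nr1h3 was called higher in YAP-5SA than in each other group and was not called in TAZ-S89A against YAP-S127A. Nr5a2 passed the filter only through YAP-5SA, and its 6 and 4 counts in TAZ-S89A and YAP-S127A are too few to tell those groups apart.

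Hhex, a homeobox gene of the liver bud, averaged 21.5 ± 3.24 CPM in TAZ-S89A, 25.0 ± 0.542 in YAP-5SA and 6.71 ± 0.377 in YAP-S127A. Thrb, a thyroid hormone receptor, averaged 12.6 ± 3.92 CPM in TAZ-S89A, 7.87 ± 0.529 in YAP-5SA and 0.823 ± 0.113 in YAP-S127A. Both were called higher in TAZ-S89A and in YAP-5SA than in YAP-S127A. The Thrb counts are uncertain because an antisense gene, Gm48321, overlaps 90772 bases of it. Klf15, a factor of hepatic amino acid and glucose metabolism, was highest in YAP-S127A like Prox1, at 0.500 ± 0.208 CPM in TAZ-S89A, 1.34 ± 0.0886 in YAP-5SA and 4.91 ± 0.362 in YAP-S127A. Ppara, the fatty acid receptor, had 61 counts in TAZ-S89A, 10 in YAP-5SA and 5 in YAP-S127A, with 0.116 to 0.775 CPM in the TAZ-S89A libraries, 0.0239 to 0.169 in YAP-5SA and 0.0223 to 0.0984 in YAP-S127A. The TAZ-S89A range overlapped that of YAP-5SA. Ppara passed the filter only through TAZ-S89A, so its calls are no support for a difference.

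**Figure D4:**
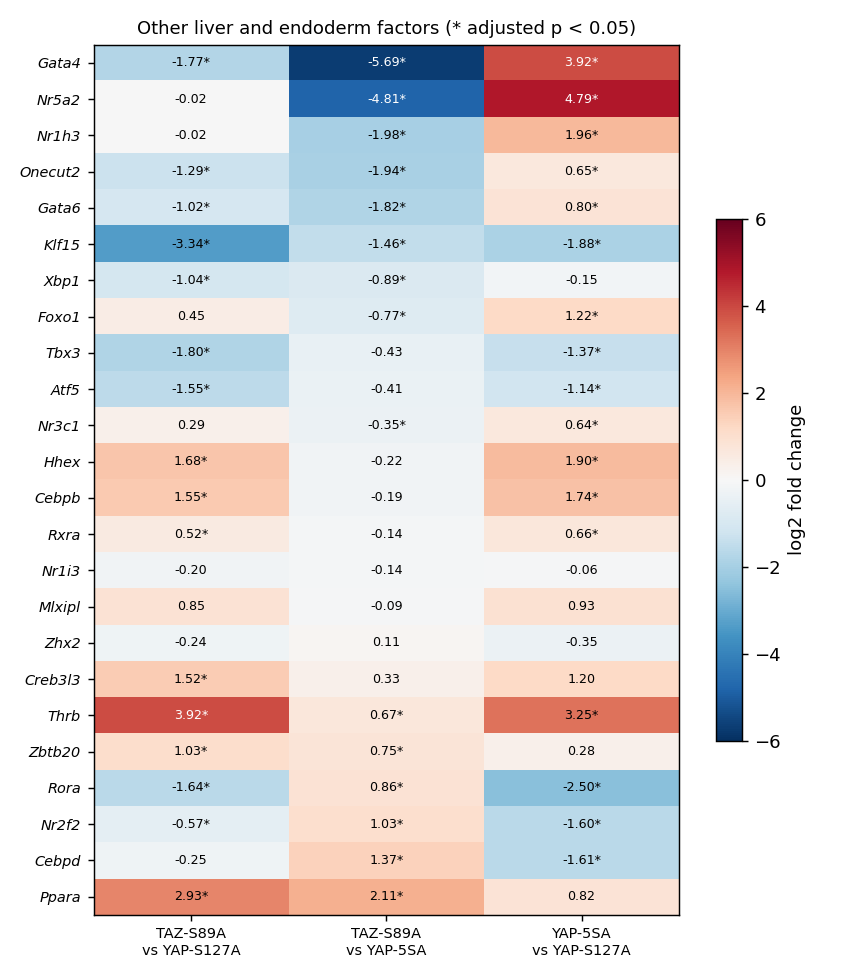
Log2 fold changes of 24 of the 26 tested liver and endoderm factors outside the 8 members (rows, ordered by TAZ-S89A against YAP-5SA) in the 3 comparisons (columns). Red is higher and blue lower in the group named first, and an asterisk marks adjusted p under 0.05 (edgeR). Gata4 and Nr5a2 are lowest in TAZ-S89A against YAP-5SA, at -5.69 and -4.81, and Nr5a2 and Ppara each passed the filter through 1 group alone.

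Of the 26 hepatocyte genes that these factors are known to bind or drive, 5 passed the filter. Apob, the protein of very low density lipoprotein, averaged 2.09 ± 0.566 CPM in TAZ-S89A, 726 ± 46.6 in YAP-5SA and 76.8 ± 4.82 in YAP-S127A, the group order of Foxa2, Nr1h4 and Gata4. Mttp, which loads lipid onto that protein, ran in another order, at 21.4 ± 0.781 CPM in TAZ-S89A, 11.8 ± 1.62 in YAP-5SA and 6.25 ± 0.102 in YAP-S127A. Trf, transferrin, averaged 0.748 ± 0.220 CPM in TAZ-S89A, 8.70 ± 1.11 in YAP-5SA and 7.66 ± 0.984 in YAP-S127A, the pattern of Hnf4a. Its log2 fold change in TAZ-S89A was -3.35 (SE 0.21) against YAP-S127A and -3.53 (SE 0.21) against YAP-5SA. Serpinc1, antithrombin, averaged 0.185 ± 0.0976 CPM in TAZ-S89A, 0.410 ± 0.130 in YAP-5SA and 0.511 ± 0.156 in YAP-S127A. Counted by calls, 4 of these 5 were lower and 1 higher in TAZ-S89A against each YAP group, beside 30.6% of all genes lower against YAP-S127A and 31% against YAP-5SA. Of the 4, Alb and Serpinc1 passed the filter only through YAP-S127A, where they were highest, so their calls are no support for a difference. Apolipoprotein Apoa1 had 4, 5 and 6 counts in TAZ-S89A, YAP-5SA and YAP-S127A and transthyretin (Ttr) 2, 0 and 8 counts in these groups. The YAP groups, with Hnf4a at 6.72 to 9.25 CPM, thus held next to no Apoa1 or Ttr mRNA.

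Markers of other lineages differed between the groups together with the factors, and their part in the results above was not tested. Summed over each library, 18 biliary and progenitor markers reached 2075 to 3978 CPM in TAZ-S89A, 3302 to 4951 in YAP-5SA and 657 to 798 in YAP-S127A. A single gene, the secreted phosphoprotein osteopontin (Spp1), made up most of the TAZ-S89A sum, at 2736 ± 921 CPM in TAZ-S89A, 203 ± 48.7 in YAP-5SA and 326 ± 43.4 in YAP-S127A. The list did not move one way: in TAZ-S89A against YAP-S127A 8 of the 17 tested were higher and 6 lower, among them Krt7, Krt19 and Aqp1, and against YAP-5SA 8 were higher and 8 lower. None of the first 3 markers of the list, Sox9, Sox4 and Hes1, was absent. In TAZ-S89A they averaged 17.9, 63.6 and 19.7 CPM, in YAP-5SA 7.97, 82.0 and 33.2 CPM, and in YAP-S127A 19.1, 53.0 and 46.8 CPM. Epcam, of the same list, was not tested, with 15, 10 and 15 counts in TAZ-S89A, YAP-5SA and YAP-S127A. Prom1 had 2, 7 and 41 counts in these groups. The 10 epithelial markers summed to 343 to 603 CPM in TAZ-S89A, 3083 to 4299 in YAP-5SA and 210 to 250 in YAP-S127A. A single gene, Krt18, made up most of each sum, at 417 ± 103, 2819 ± 527 and 164 ± 20.2 CPM in these groups. Krt8 ran otherwise between TAZ-S89A and YAP-S127A, at 6.77 ± 2.71 CPM in TAZ-S89A, 665 ± 137 in YAP-5SA and 31.9 ± 3.18 in YAP-S127A. Krt19 and Krt7, simple keratins, averaged 7.38 and 1.41 CPM in TAZ-S89A, 1371 and 1743 in YAP-5SA and 55.9 and 102 in YAP-S127A, the group order of Foxa2 and Nr1h4, while Cdh1, the epithelial cadherin, averaged 0.405 ± 0.253 CPM in TAZ-S89A, 1.53 ± 0.188 in YAP-5SA and 12.0 ± 0.840 in YAP-S127A.

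FOXA and HNF4 factors also act in other endoderm organs, and 9 factors of such organs were read beside them. Their sum was 0.178 to 0.652 CPM in TAZ-S89A, 18.2 to 20.4 in YAP-5SA and 0.689 to 1.14 in YAP-S127A. In YAP-5SA it came mostly from Pdx1, the pancreas and duodenum factor, with 2 counts in TAZ-S89A, 16.7 ± 0.855 CPM in YAP-5SA and 0.477 ± 0.186 CPM in YAP-S127A, and Cdx2, the intestinal factor, with 4 counts in TAZ-S89A and 2.36 ± 0.536 and 0.429 ± 0.159 CPM in YAP-5SA and YAP-S127A. Sox2 and Cdx1 ran otherwise, with 32 and 8 counts in TAZ-S89A and 0 in both YAP groups, and neither was tested. Of these 9 factors, 2 were at 0 counts in TAZ-S89A, 6 in YAP-5SA and 5 in YAP-S127A. The Pdx1 counts are uncertain because an antisense gene, Plut, overlaps it.

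Fibroblast and mesenchymal markers (14 genes) summed to 5115 to 6227 CPM in TAZ-S89A, 4971 to 5227 in YAP-5SA and 12561 to 13451 in YAP-S127A, the group in which Cebpa and Prox1 were highest. A single gene, Vim, made up most of the YAP-5SA sum. It averaged 1633 ± 311 CPM in TAZ-S89A, 4279 ± 235 in YAP-5SA and 2549 ± 102 in YAP-S127A. The collagen genes Col1a1, Col1a2 and Col3a1 averaged 31.0, 2219 and 11.2 CPM in TAZ-S89A, 322, 16.2 and 6.36 CPM in YAP-5SA, and 2949, 2273 and 559 CPM in YAP-S127A. Stellate and mesothelial markers (12 genes) summed to 1241 to 1984 CPM in TAZ-S89A, 1887 to 2034 in YAP-5SA and 1199 to 1241 in YAP-S127A. Msln, Wt1 and Lhx2 averaged 1367, 1.61 and 3.91 CPM in TAZ-S89A, 1909, 4.49 and 0.113 CPM in YAP-5SA, and 742, 1.43 and 0.345 CPM in YAP-S127A, and Tcf21 had 0 counts in every library. Msln made up most of these sums, and Pdgfrb, the growth factor receptor of stellate cells and pericytes, ran otherwise, at 268 ± 37.1 CPM in TAZ-S89A, 1.12 ± 0.112 in YAP-5SA and 474 ± 31.3 in YAP-S127A. Its log2 fold change was -0.82 in TAZ-S89A against YAP-S127A, 7.90 in TAZ-S89A against YAP-5SA and -8.72 in YAP-5SA against YAP-S127A. Leukocyte markers (10 genes) summed to 8.01 to 9.51 CPM in TAZ-S89A, 52.6 to 55.8 in YAP-5SA and 15.2 to 15.3 in YAP-S127A. Ptprc, the pan-leukocyte phosphatase, was at most 0.394 CPM in any library. Csf1r averaged 1.82 CPM in TAZ-S89A, 28.2 in YAP-5SA and 7.60 in YAP-S127A. Adgre1 had 25 counts in YAP-5SA and 0 in both other groups.

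Prox1 is also a lymphatic endothelial factor, and the endothelial markers Kdr and Tek were highest in YAP-S127A, as Prox1 was. The 10 endothelial markers summed to 0.377 to 1.26 CPM in TAZ-S89A, at most 1.52 in YAP-5SA and 1.83 to 2.56 in YAP-S127A. Kdr, the VEGF receptor, averaged 0.101 ± 0.0825 CPM in TAZ-S89A, 0.240 ± 0.160 in YAP-5SA and 1.25 ± 0.206 in YAP-S127A. It passed the filter only through YAP-S127A. Tek, the angiopoietin receptor, had 4 counts in TAZ-S89A, 7 in YAP-5SA and 41 in YAP-S127A. Pecam1 and Cdh5 ran otherwise, with 13 and 12 counts in TAZ-S89A, 43 and 15 in YAP-5SA and 16 and 1 in YAP-S127A. So did Lyve1 and Sox18, with 0 and 5 counts in TAZ-S89A, 6 and 7 in YAP-5SA and 3 and 0 in YAP-S127A. The part of endothelial RNA in the Prox1 difference was not tested.

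The genes whose pattern over the 11 libraries was most like that of each factor were found by the root mean square (RMS) difference of gene-centred log2 CPM. For Hnf4a they were Fam20a (RMS difference 0.178), Sema4g (0.191) and Nradd (0.219), each about as low in TAZ-S89A, with log2 fold changes of -3.35, -3.63 and -3.32 against YAP-S127A. For Foxa2 they were Slco2a1 (0.274), Dhdh (0.391) and Cdkn1a (0.394), and for Nr1h4 Nudt18 (0.153), Oplah (0.196) and Cltb (0.212). For Foxa1 they were Rgs12 (0.0578), Nvl (0.0611) and Wdr91 (0.0649), none of them called in any comparison. For Cebpa they were Sh3kbp1 (0.237), Exoc6b (0.259) and Sirpa (0.267), and for Prox1 Trabd2b (0.429), Potegl (0.436) and Bco1 (0.455). Among the 6 tested factors themselves the closest pair was Cebpa and Prox1 at 0.707. Foxa1 and Foxa2, the pair of paralogs, were farthest apart at 2.75. The values of these pairs cannot be set against those of the genes above. Those genes were the nearest of a far larger pool, all tested genes with a RefSeq symbol outside the members and predicted models.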

How the data were processed

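PolyA RNA was sequenced from cell lines of mouse liver tumours. Per the file headers, the deposited count is the number of uniquely aligned reads in an Entrez gene model. The deposited nRPKM is an RPKM that the authors also scaled by library size factors, and it served here to compare levels between genes. Reads were aligned with GSNAP to GRCm38, per the submitters' processing notes. The strand setting, annotation release, read counter and version of the aligner were not given in the sources used here. Replicates were numbered in order of deposition.

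Symbols and positions come from RefSeq, which matched 31049 of 36528 IDs, and overlaps of genes from GENCODE. Library totals include the 5479 IDs without a match (2.91% of counts). Counts were tested with edgeR 4.0.16 in R 4.3.3: filterByExpr by group, TMM factors, a robust quasi-likelihood fit over all 11 libraries with 3 groups, and Benjamini-Hochberg adjustment over the 18224 genes tested. SE is the absolute log2 fold change divided by the square root of F, and other errors are SD. The method was tested on simulated counts in which few genes changed, all in TAZ-S89A. In the real data far more genes were called, so that test does not cover them. Alternatives changed the tool (DESeq2 1.42.0 or limma-voom from limma 3.58.1), the scaling (upper-quartile or RLE), the filter (none, or 1 CPM in 3 libraries with a mean log2 CPM of 1), the libraries (each left out in turn, the second sample ID series left out, or the compared groups alone), a covariate (ID series) and the call rule (an added 2-fold threshold, which is 1 on the log2 scale). Motifs were searched as exact letters in 12 RefSeq windows of the 8 members.

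The members and lists were chosen with earlier results of these data known. Named besides the 8 members were list genes among the 4 highest and 4 lowest called per comparison (2 for marker lists), the first 3 of each marker list, and the 3 closest genes per tested member, by log2 CPM with a prior count of 2. Nr0b2, Cyp7a1, Apoa1, Ttr, Msln, Tek, Lyve1, Sox18, Sox2, Epcam, Creb3l3, Mlxipl and the genes that overlap others were named after their values were seen. Results that the naming rule selected but that are withheld are not reported here.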

Additional observations from a re-analysis of the deposited data

How the results depend on the processing

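No paired analysis was possible because the labels carry no replicate numbers. Over 22 alternatives, 193 of 198 counts of called genes stayed within 1.5 times the value reported. The exceptions were the counts of all genes called once a log2 fold change beyond 1 or -1 was required, 5873 in TAZ-S89A against YAP-S127A, 6164 in TAZ-S89A against YAP-5SA and 6269 in YAP-5SA against YAP-S127A, beside 10505, 10545 and 10062, and the other liver and endoderm factors called in TAZ-S89A against YAP-5SA, 10 both under that rule and under the strict filter, beside 16. Members called ranged over 4 to 5, 3 to 4 and 3 to 4 in the 3 comparisons. Prox1 was not tested under the strict filter. The fold changes of the 6 tested members kept their direction and their side of the threshold in 368 of 375 refits, and the 7 others are of 2 uncalled values. Cebpa in TAZ-S89A against YAP-5SA (0.06) was -0.029 with limma-voom, -0.37 with the sample ID series as a covariate, -0.36 without its second part, -0.08 without TAZ-S89A replicate 4 or replicate 5 and -0.11 without YAP-5SA replicate 3, in a range of -0.11 to 0.28 over all libraries left out. Foxa1 in the same comparison (0.06) was -0.0085 without YAP-5SA replicate 2, in a range of -0.0085 to 0.14. The cause was not tested. Summing the close TAZ-S89A pairs, an alternative chosen after seeing the data, changed no call of a member. Depth limits Foxa3 and Onecut1, with 9 counts or fewer in each library. It also limits Foxa2 and Prox1 in TAZ-S89A, with 5 to 15 and 2 to 19 counts a library.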
